A study of Homo sapiens with 12 samples.

Results

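The mitochondrial ribosomal protein genes are the nuclear genes for the protein part of the ribosome inside mitochondria. They were taken as every row of the deposited gene count table whose Ensembl identifier belongs to a protein-coding gene with a symbol of MRPL or MRPS followed by a number. This gave 78 of 32269 rows, of which 49 are MRPL genes and 29 are MRPS genes. MRPL stands for large subunit and MRPS for small subunit. In the known structure 51 of the products sit in the large subunit and 26 in the small subunit, because the products of MRPS30 and MRPS18A are large-subunit proteins and MRPS36 has no place in either. MRPS36 is now known as a part of the alpha-ketoglutarate dehydrogenase complex. A further 30 rows have an MRPL or MRPS name and are pseudogenes, antisense genes or other RNAs, and they were left out.

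The study compared human gastric cancer cells with and without cantharidin sodium. AGS is a line of gastric adenocarcinoma epithelial cells and MKN1 is a line from a gastric adenosquamous carcinoma, and both carry the genotype label WT. Each line was profiled untreated and treated, with 3 libraries in each of the 4 groups and 12 libraries in all. Cantharidin is a beetle toxin known to inhibit the serine/threonine phosphatases PP1 and PP2A. All groups were grown in the same serum-supplemented medium, and neither dose nor duration is stated in the sources used here. The series text calls the libraries biological replicates, and each line is a single cell line, so the p-values measure the spread between cultures. That spread was estimated from all 12 libraries together, so the p-values in either line also depend on the spread in the other line.

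The mitochondrial ribosome makes the few proteins that mitochondrial DNA still encodes, which are core subunits of the respiratory chain and of ATP synthase. Its ribosomal RNAs are encoded in mitochondria, whereas its proteins are made in the cytosol and imported. The small subunit binds the messenger RNA and holds the decoding centre, and the large subunit forms the peptide bond and holds the exit tunnel. Many of the proteins have a bacterial homologue and the others were added during the evolution of mitochondria.

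The libraries held 28604966 to 51604215 counts. Levels are given in CPM, the usual counts of a gene relative to the size of its library, with the size adjusted by the trimmed mean of M values (TMM). Fewer cells of a kind and less RNA per cell cannot be told apart on this scale. All 78 genes passed the filter on low counts and were among the 20280 genes tested, and the lowest count of any of them in any library was 42. Keratin genes of epithelial cells were abundant in both lines, with KRT8 at 2373 CPM in untreated AGS and 3550 CPM in untreated MKN1. EPCAM was at 429.1 CPM in untreated AGS and 21.8 CPM in untreated MKN1. Of the 7 epithelial markers, edgeR called 2 higher and 4 lower in untreated MKN1 (34.9% and 31.4% of all genes were). Squamous keratins were abundant in untreated MKN1, with KRT6A at 1263 CPM, and KRT5 was at 0 CPM in untreated AGS. Of the 6 squamous markers, 5 were called higher in untreated MKN1. SFN was not, at 180.7 CPM in untreated AGS and 238.9 CPM in untreated MKN1 (edgeR adjusted p = 0.162). Markers of other cell types summed to 30.3 to 38.6 CPM in untreated AGS and 10.9 to 13.9 CPM in treated AGS, with 4 of the 6 tested genes changed. Of those 4, 3 fell and 1 rose. COL1A1 was at 21.7 CPM in untreated and 12.1 CPM in treated AGS (edgeR adjusted p = 0.00504). HBB was at 11.4 CPM in untreated and 0.026 CPM in treated AGS (adjusted p = 8.9e-05). PTPRC and ALB were below the filter, and PECAM1 was at 0 CPM in untreated AGS. The corresponding sums were 18.0 to 29.6 CPM in untreated MKN1 and 15.3 to 17.9 CPM in treated MKN1, and the part of these markers in the results was not tested. Untreated MKN1 replicate 3 stood apart from the other libraries of its group, with correlations of log2 CPM of 0.97 to both where the other pair reached 0.99.

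Short stretches of the promoters are shown first, since sequence had no part in choosing the genes. RefSeq promoters (GRCh38.p14, 250 bases before the start and 50 after it) were matched by symbol for 69 of the genes. Those not matched were MRPS36, MRPL23, MRPL2, MRPL15, MRPL13, MRPL10, MRPS28, MRPL35 and MRPL21. CCGGAAG, the core letters bound by ETS factors such as GABP, was searched on both strands and stood in 30 of the 69 (43.5%), against 16.5% of the 15843 protein-coding genes with a promoter. Windows are shown only for genes with these letters. MRPL14, MRPL41, MRPS15, MRPS35 and MRPS30, on which comparisons below also turn, have matched promoters without them. MRPS12 and MRPS21 each have a further match that is not shown. The windows of 29 bases show where the letters lie, in capitals, read 5′ to 3′ on the strand of the gene, with CTTCCGG as the reverse complement.
MRPL27, chr17:50373219-50373247, minus strand: ccacgcagggcCCGGAAGtagatctcctg
MRPL27, chr17:50373175-50373203, minus strand: acttttcgagaCCGGAAGtgagtgatcga
MRPL48, chr11:73787800-73787828, plus strand: aatttcagaagCTTCCGGaactaaaatga
MRPL51, chr12:6493349-6493377, minus strand: cggcaggcggaCCGGAAGcactgaggcgg
MRPL51, chr12:6493364-6493392, minus strand: gcgctccaaaaCTTCCGGcaggcggaccg
MRPL20, chr1:1407320-1407348, minus strand: cgaccttcgccCCGGAAGtatcgcagggg
MRPL20, chr1:1407297-1407325, minus strand: caggggctgacCCGGAAGcgctcgtgacc
MRPS12, chr19:38930928-38930956, plus strand: acggatagcgcCCGGAAGaggctagaagc
MRPL3, chr3:131502986-131503014, minus strand: tgtaaaacgcaCCGGAAGtgggtccggcg
MRPS21, chr1:150293839-150293867, plus strand: cgtaatttccgCTTCCGGtagtgagaacc

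A second set of letters, AAGATGGC, the core of sites bound by YY1, stood in 21 of the 69 promoters on either strand (30.4%), against 4.67% of all protein-coding genes. The letters of both kinds were present in 8 promoters and at least one kind in 43 (62.3%, against 20.03% of all). The YY1 letters are shown for genes that fell in AGS (MRPL20, MRPL51 and MRPS7) and for one that rose (MRPS30), and in these 4 they lie just after the start.
MRPL20, chr1:1407261-1407288, minus strand: cgacccgggcAAGATGGCagcggcgctg
MRPL51, chr12:6493224-6493251, minus strand: ggtaaggcccAAGATGGCtgtcttcgcc
MRPS7, chr17:75261888-75261915, plus strand: gtggccagccAAGATGGCtgcccccgca
MRPS30, chr5:44808950-44808977, plus strand: atcgcgggcaAAGATGGCggcggccagg

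The letters were spread over both subunits. CCGGAAG stood in 18 of 42 MRPL and 12 of 27 MRPS promoters, and AAGATGGC in 13 and 8. GCATGCGC, letters of NRF1 sites, stood in 6 of the 69 promoters (8.70%, against 4.89% of all), the E-box CACGTG in 9 (13.0%, against 10.9%) and TATAAA in 3 (4.35%, against 12.4%). A match is a description of the letters in these windows and no measure of binding.

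The genes differed widely in level. Per kilobase of exon the mean over the 12 libraries ran from 2.53 to 70.2 CPM, a 27.8-fold range, with a median of 14.7 for MRPL and 13.8 for MRPS genes. Over that mean the highest was MRPS35, a mitochondria-specific small-subunit protein, at 51.5 CPM per kilobase in untreated AGS and 75.5 in untreated MKN1. MRPL12 followed over the same mean, at 58.7 and 51.5 CPM per kilobase. It forms the flexible stalk that recruits translation factors, where it is present in several copies, and 68.2% of its exon bases are shared with another annotated gene on the same strand. MRPL3, which reaches toward the peptidyl transferase centre, came next with 54.6 and 36.5 CPM per kilobase. The lowest 12-library means were those of MRPL42 (3.84 and 4.04), MRPL46 (3.30 and 2.18) and MRPL23 (2.00 and 3.32), in CPM per kilobase in untreated AGS and untreated MKN1. Within single groups the order differed: in untreated AGS MRPL51 was highest, at 66.9 CPM per kilobase, and in untreated MKN1 MRPL18 came after MRPS35, at 52.6. MRPL48, at 3.84, was below MRPL42 in untreated MKN1. The exon length used is that of all annotated isoforms together, which lowers the value of genes with many isoforms.

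**Figure D1:**
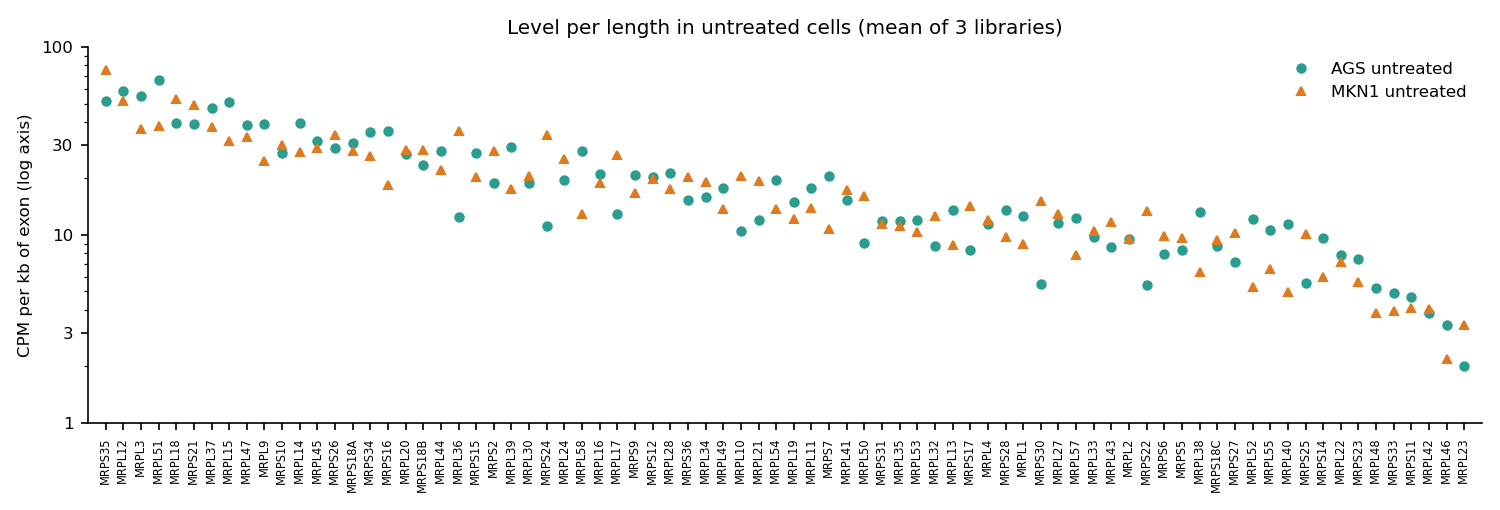
Level of each of the 78 genes in CPM per kilobase of exon (log axis) in untreated AGS (circles) and untreated MKN1 (triangles), each the mean of 3 libraries, in order of the mean over 12 libraries. MRPS35 stands at the left end and MRPL23 at the right end, and single genes such as MRPL36 and MRPS24 lie far apart in the 2 lines.

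Untreated MKN1 and AGS had different profiles of mitochondrial ribosomal protein RNA. Of the 78 genes, 20 were higher and 32 were lower in MKN1, where 34.9% and 31.4% of all genes tested were called in those directions by edgeR at an adjusted p under 0.05. The MRPL genes were lower more often than higher (23 against 9 of 49) with a median log2 difference of -0.20, and the MRPS genes were 9 lower and 11 higher of 29 with a median of 0.14. The median over all genes was 0.04. Without untreated MKN1 replicate 3 the counts were 20 higher and 25 lower. This comparison uses the same untreated libraries as the treatment comparisons below.

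MRPS24, a small-subunit protein at the entry of the messenger RNA, was at 28.8, 24.8 and 33.7 CPM in the untreated AGS libraries and 90.4, 109.5 and 67.5 CPM in those of MKN1. The groups did not overlap and the log2 difference was 1.61 ± 0.18 (SE, adjusted p = 3.45e-06). The readthrough gene URGCP-MRPS24 shares 23.2% of the MRPS24 exon bases. MRPL36, a small bacterial-type protein of the large subunit, was at 19.3, 15.9 and 16.9 CPM in AGS and 46.4, 53.8 and 48.4 CPM in MKN1. All MKN1 values lay above all AGS values, with a log2 difference of 1.51 ± 0.14 (adjusted p = 8.07e-07). MRPS30, a mitochondria-specific protein of the large subunit despite its symbol, was at 35.3, 34.2 and 32.9 CPM in AGS and 108.4, 94.0 and 79.1 CPM in MKN1. MRPS30 therefore had no overlap either, with a log2 difference of 1.46 ± 0.11 (adjusted p = 1.07e-07). MRPS22, a mitochondria-specific small-subunit protein, and MRPL17, a large-subunit protein with a bacterial homologue, were higher by 1.31 and 1.04 on the log2 scale.

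In the other direction, MRPL40 was at 21.6, 18.9 and 27.3 CPM in untreated AGS and 9.14, 10.9 and 9.20 CPM in untreated MKN1. MRPL52 was at 37.4, 40.7 and 39.6 CPM in AGS and 16.6, 17.2 and 17.0 CPM in MKN1. Both are mitochondria-specific large-subunit proteins, and for both every MKN1 library lay below every AGS library, with log2 differences of -1.22 ± 0.16 (adjusted p = 2.34e-05) and -1.21 ± 0.14 (adjusted p = 4.20e-06). MRPL58, a peptidyl-tRNA hydrolase that is built into the large subunit, had a log2 difference of -1.11 ± 0.13. MRPL38 and MRPS16 had log2 differences of -1.05 and -0.94. MRPL38 shares 37.5% of its exon bases with another gene on its strand, and MRPS16 has 3 named pseudogenes, so part of their counts could belong elsewhere.

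In AGS the treatment was accompanied by lower RNA for the mitochondrial ribosomal proteins. Of the 78 genes, 17 fell (21.8%) and 2 rose (2.56%) at an adjusted p under 0.05, where 11.6% of all genes tested fell and 9.21% rose. The fold changes were modest: the median was -0.21 on the log2 scale, against -0.01 over all genes, and no gene reached a 1-unit change. The sign was negative for 62 genes and positive for 16. By library values, 41 genes had every treated library below every untreated library (26.8% of all genes did) and 10 had every treated library above (25.6% of all genes did).

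Both subunits were affected. Of the MRPL genes 11 of 49 fell, with a median of -0.25, and the 2 genes that rose were both MRPS genes, which had 6 of 29 lower and a median of -0.12. No MRPL gene rose by edgeR or limma voom, 2 had an unadjusted p under 0.05 in that direction, and DESeq2 called 1. With subunits assigned by structure, the large subunit had 11 genes lower and 1 higher of 51 (median -0.24) and the small subunit 6 lower and 1 higher of 26 (median -0.15). Genes with a bacterial homologue and mitochondria-specific genes had medians of -0.21 and -0.17. Of these, 11 of 46 (23.9%) and 6 of 31 (19.4%) were lower, against 11.6% of all genes. Higher were 0 of 46 and 2 of 31 (6.45%), against 9.21% of all genes. Of the genes with the ETS letters in a promoter 10 of 30 fell, and of those without 7 of 39. For the YY1 letters the counts were 5 of 21 with and 12 of 48 without, and neither contrast was tested.

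Summed over genes, the MRPL level was 2170, 2032 and 2294 CPM in untreated AGS and 1881, 1801 and 1937 CPM in treated AGS. The MRPS sum was 1280, 1207 and 1331 CPM untreated and 1200, 1163 and 1223 CPM treated. The MRPL sums did not overlap between groups, whereas the MRPS sums did. The ratio of the MRPL to the MRPS sum was 1.70, 1.68 and 1.72 untreated and 1.57, 1.55 and 1.58 treated, so that all treated AGS libraries lay below all untreated ones. In MKN1 the ratio was 1.32, 1.36 and 1.33 untreated and 1.35, 1.34 and 1.36 treated, with overlapping groups. No test was made of these sums. Median transcript GC content was 51.5% over MRPL and 47.3% over MRPS genes, and its part in the ratio was not tested.

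**Figure D2:**
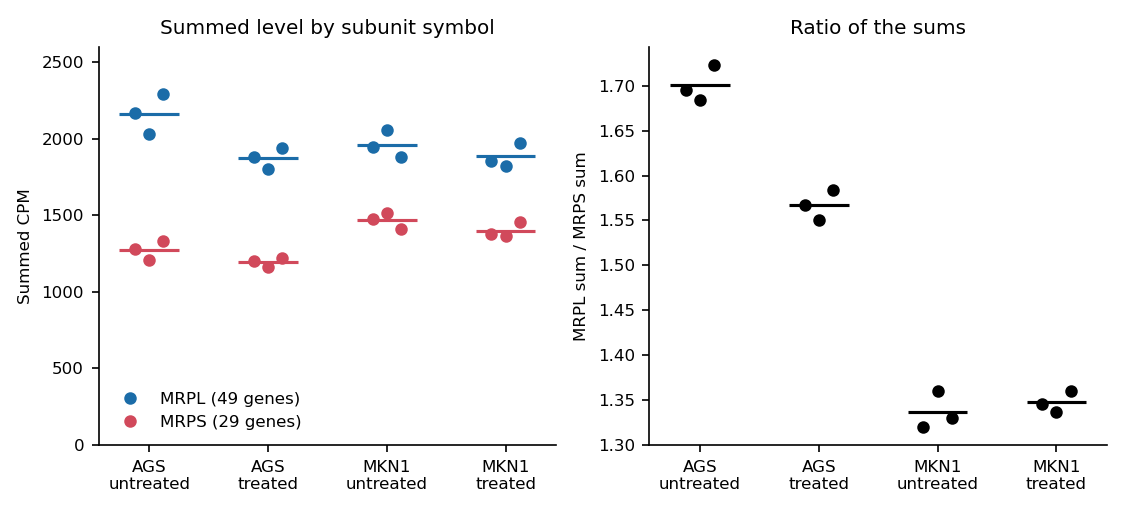
Left, summed CPM of the 49 MRPL genes (blue) and the 29 MRPS genes (red) in each library; right, the ratio of the sums (axis does not start at 0). Points are libraries and lines are means of 3; the treated AGS ratios (1.55 to 1.58) lie below the untreated ones (1.68 to 1.72), and the MKN1 ratios overlap.

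MRPL27, a large-subunit protein whose bacterial homologue reaches the peptidyl transferase centre, had the largest fall in AGS. It lies on chromosome 17 (50367857 to 50373214, GRCh38, GENCODE 29), and its level was 35.1, 31.3 and 38.6 CPM untreated and 20.4, 19.2 and 20 CPM treated. Every treated library was lower, and the log2 fold change was -0.82 ± 0.21 (SE, adjusted p = 0.0158). In MKN1 its values were 42.6, 48.1 and 26.6 CPM untreated and 27.7, 23.5 and 36.9 CPM treated. Those groups overlapped, with a log2 fold change of -0.41 ± 0.21 (adjusted p = 0.251).

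MRPL48, a mitochondria-specific protein of the large subunit (chromosome 11, 73787316 to 73865133), was at 22.2, 19.7 and 26.4 CPM in untreated AGS and 14.1, 13.9 and 13.0 CPM in treated AGS. The treated libraries were close together and below all untreated ones, with a log2 fold change of -0.74 ± 0.15 (adjusted p = 0.00644). MRPL51, another mitochondria-specific large-subunit protein (chromosome 12, 6491886 to 6493841), fell from 103.5, 97.0 and 110.7 CPM to 64.2, 61.0 and 67.4 CPM. Its groups did not overlap and the log2 fold change was -0.69 ± 0.12 (adjusted p = 0.00299). NCAPD2 on the opposite strand covers 31.3% of the MRPL51 exon bases, and a library kit without strand marking cannot tell such reads apart.

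Among the small-subunit genes, MRPS12 had the largest fall. Its product belongs to the decoding centre, and the gene lies on chromosome 19 (38930548 to 38933162). The level was 41.0, 42.3 and 48.0 CPM in untreated AGS and 26.1, 26.0 and 29.1 CPM in treated AGS. All treated values were lower, with a log2 fold change of -0.69 ± 0.18 (adjusted p = 0.0164), and 16.3% of its exon bases are shared with SARS2 on the other strand. MRPS7, a protein of the small-subunit head, fell by 0.64 on the log2 scale (adjusted p = 0.0174). MRPS15 and MRPS34 had log2 fold changes of -0.54 and -0.48, and MRPS5 and MRPS18C of -0.38 and -0.36.

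MRPL41, a mitochondria-specific large-subunit protein on chromosome 9 (137551199 to 137552555), was at 17.4, 15.9 and 25.1 CPM in untreated AGS and 13.6, 11.4 and 11.7 CPM in treated AGS. Untreated replicate 3 was well above the others, the groups did not overlap, and the log2 fold change was -0.67 ± 0.18 (adjusted p = 0.0219). With trends over transcript GC content and length removed, the MRPL41 value was -0.23 (adjusted p = 0.266). MRPL14, a large-subunit protein at the interface with the small subunit (chromosome 6, 44113454 to 44127457), was at 34.5, 34.5 and 43.9 CPM untreated and 25.2, 22.8 and 24.1 CPM treated. Its groups did not overlap, with a log2 fold change of -0.65 ± 0.15 (adjusted p = 0.00974). The other MRPL genes that fell were MRPL20 (-0.61), MRPL28 (-0.55), MRPL11 (-0.48), MRPL33 (-0.43), MRPL38 (-0.41) and MRPL44 (-0.37), in log2 fold change.

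MRPS35 and MRPS30 rose in AGS. MRPS35 (chromosome 12, 27710773 to 27756295) went from 102.5, 98.1 and 105.3 CPM to 133.3, 125.9 and 134.1 CPM. No treated library overlapped an untreated one, with a log2 fold change of 0.36 ± 0.11 (adjusted p = 0.0407). MRPS30 (chromosome 5, 44808925 to 44820428) went from 35.3, 34.2 and 32.9 CPM to 42.6, 43.0 and 44.5 CPM, again without overlap, with 0.34 ± 0.11 (adjusted p = 0.0432). Neither call held when any single AGS library was left out, although the values stayed between 0.33 and 0.39 for MRPS35 and between 0.32 and 0.37 for MRPS30. MRPL32, MRPS10 and MRPS31 had log2 fold changes of 0.38, 0.35 and 0.30 that did not pass (adjusted p = 0.119, 0.0556 and 0.205).

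Of the MRPS18 paralogues, which occupy different places in the ribosome, MRPS18C fell in AGS, from 41.3, 40.9 and 45.8 CPM to 32.1, 34.2 and 33.2 CPM (adjusted p = 0.0494). That call was lost without any 1 of the 6 AGS libraries or untreated MKN1 replicate 1, and with DESeq2 size factors, library totals or no filter. ABRAXAS1 on the opposite strand covers 40.2% of its exon bases. MRPS18A, whose product is in the large subunit, was at 36.4, 39.5 and 42.4 CPM untreated and 41.1, 32.4 and 37.5 CPM treated, and these values overlapped. MRPS18A and MRPS18B had log2 fold changes of -0.09 and -0.06 in AGS and of -0.19 and 0.06 in MKN1, none past the threshold.

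The count of genes lower in AGS ranged from 4 to 26 when single libraries were left out. The share of all genes that was lower moved as well. Without untreated replicate 3 it was 4 genes (5.13%, against 5.72% of all genes), and without treated replicate 2 it was 5 (6.41%, against 5.83%), so that in both fits the share was near that of all genes. It was 8 without treated replicate 3 (10.3%, against 6.55%), 9 without untreated replicate 1 (11.5%, against 7.11%) and 9 without treated replicate 1 (11.5%, against 6.59%). Without untreated MKN1 replicate 3 it was 26 (33.3%, against 14.6%). MRPL48, MRPL51 and MRPS15 kept their AGS call under every alternative run. MRPL33, MRPL44 and MRPS18C lost it in each of the 6 fits without an AGS library, MRPL11, MRPL38, MRPS5 and MRPS34 in 5 and MRPS7 in 4. In AGS the fold change also moved with GC content: over 5 equal bins of transcript GC, from the lowest to the highest, the median over all genes went from 0.19 to -0.29 and that of the ribosomal protein genes from -0.04 to -0.42. In each bin the ribosomal protein median was the lower of the pair. With GC and length trends removed, 19 genes were lower (24.4%, against 10.4% of all genes) and 1 higher (1.28%, against 10.1%). The medians were -0.20 for MRPL and -0.09 for MRPS. Of the 19 genes called in the main fit 14 were also called there. MRPL38, MRPL41, MRPS5, MRPS34 and MRPS35 lost the call, and MRPL36, MRPL39, MRPS28, MRPS36, MRPL35 and MRPL22 gained one.

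**Figure D3:**
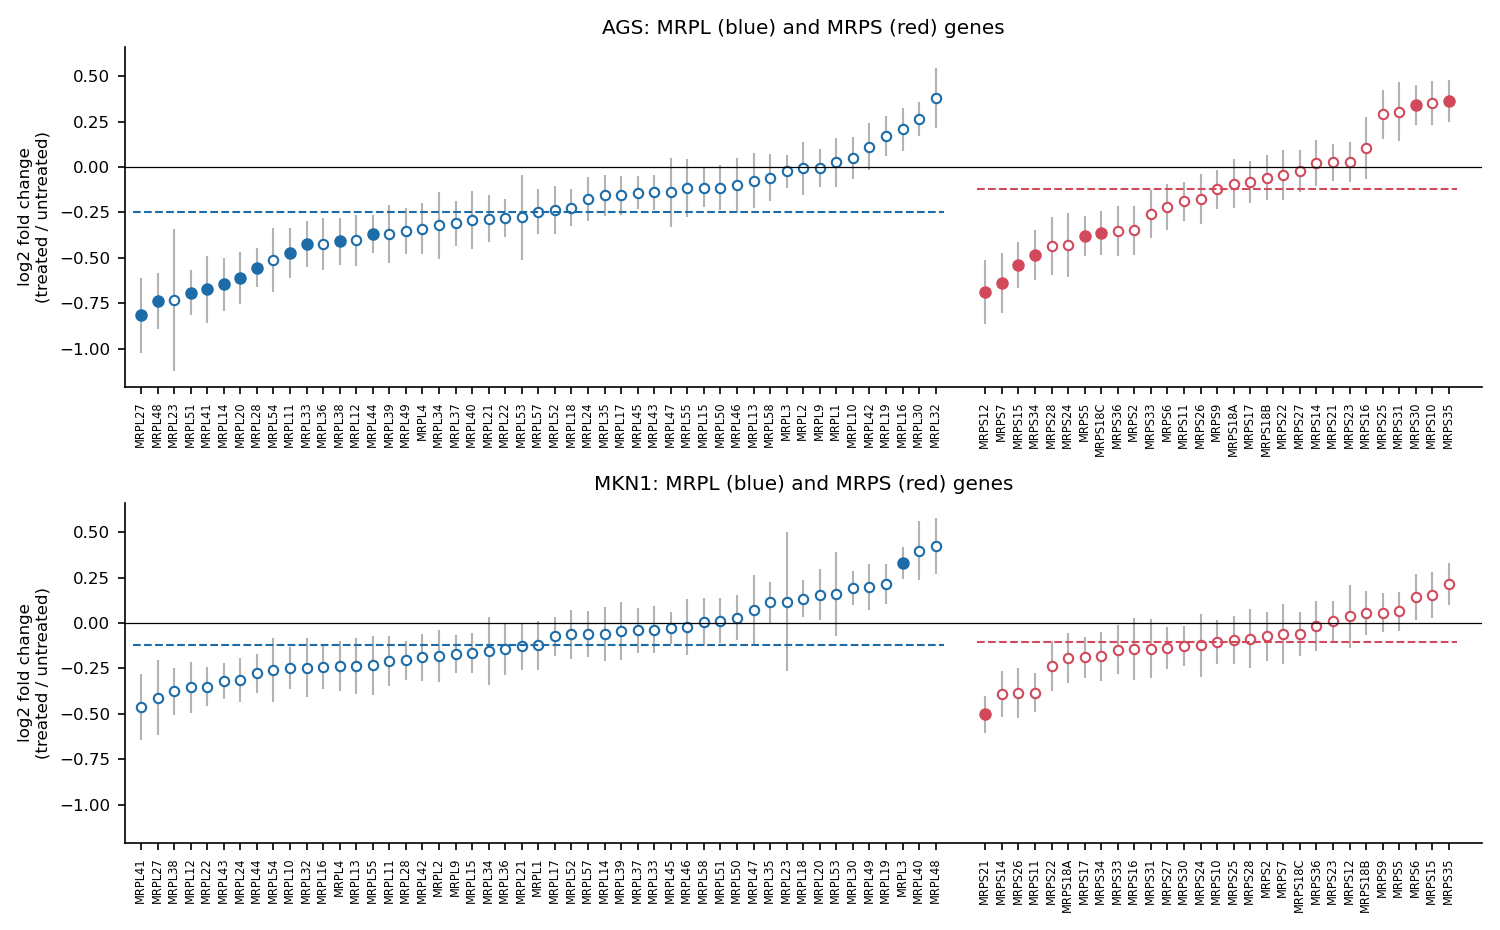
log2 fold change (treated over untreated) of each gene in AGS (top) and MKN1 (bottom), with bars of 1 SE. Filled points have an adjusted p under 0.05 and dashed lines are medians; in AGS 17 filled points lie below 0 and 2 above, and in MKN1 there is 1 on each side.

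In MKN1 few mitochondrial ribosomal protein genes passed the test. One rose, MRPL3 (1.28% of the 78, against 2.8% of all genes), and one fell, MRPS21 (1.28%, against 3.9%). The median log2 fold change was -0.11, against 0.01 over all genes, with 55 genes negative and 23 positive. The MRPL and MRPS medians were -0.12 and -0.10. By library values 13 genes had all treated libraries lower (11.4% of all genes did) and 3 had all treated libraries higher (9.95% of all genes did). The spread between libraries was wider than in AGS: the median SD of log2 CPM over the 78 genes was 0.15 untreated and 0.17 treated in MKN1, against 0.10 and 0.08 in AGS.

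MRPS21, a small-subunit protein with a bacterial homologue (chromosome 1, 150293720 to 150308979), was at 74.0, 84.3 and 83.3 CPM in untreated MKN1 and 58.4, 51.4 and 60.8 CPM in treated MKN1. Every treated library was lower, with a log2 fold change of -0.50 ± 0.10 (adjusted p = 0.0159). In AGS it was at 63.5, 59.3 and 68.0 CPM untreated and 65.8, 61.4 and 67.2 CPM treated, with overlapping groups. MRPS21 has 8 named pseudogenes, to which the authors' counting could assign some of its reads. The MKN1 call was lost without untreated replicate 2 (adjusted p = 0.0762) or treated replicate 2 (adjusted p = 0.0511).

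MRPL3 (chromosome 3, 131462212 to 131502983) was at 105.3, 98.3 and 93.3 CPM in untreated MKN1 and 126.8, 126.7 and 120.0 CPM in treated MKN1. All treated values were higher, with a log2 fold change of 0.33 ± 0.09 (adjusted p = 0.0456). The call was lost when any single library other than treated MKN1 replicate 3 was left out. In AGS it was at 153.2, 140.8 and 150.5 CPM untreated and 141.7, 145.3 and 150.1 CPM treated, which overlapped. Without untreated MKN1 replicate 3, 9 genes fell in MKN1, MRPS21 and MRPL38, MRPS11, MRPS22, MRPL13, MRPL44, MRPL27, MRPL32 and MRPL22, and MRPL3 did not pass (adjusted p = 0.0514). These 9 are 11.5% of the 78, where 7.6% of all genes fell in that fit, against 3.9% with all libraries.

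**Figure D4:**
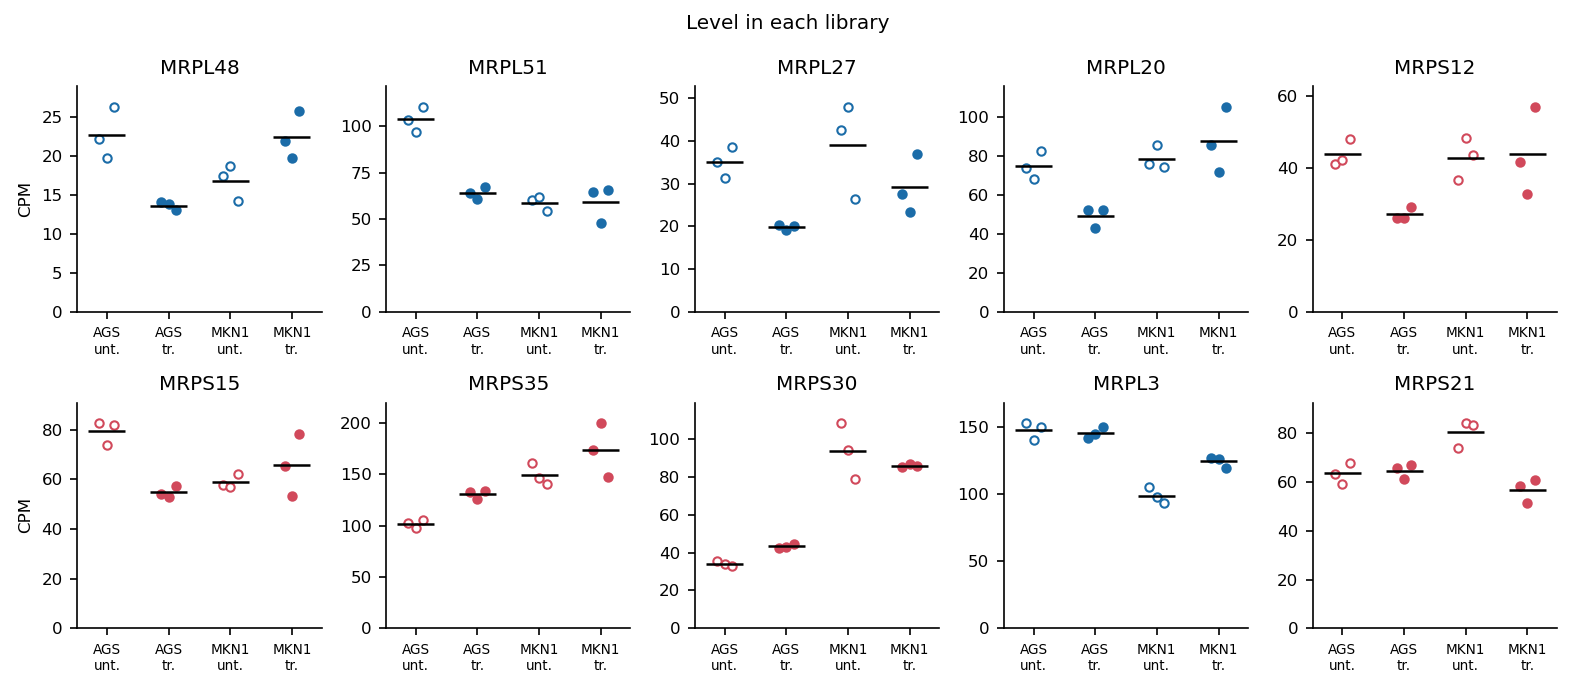
CPM of 10 genes in each library; open points are untreated, filled points treated, and bars are means of 3 (blue MRPL, red MRPS, axes start at 0). MRPL48, MRPL51, MRPL27, MRPL20, MRPS12 and MRPS15 lie lower in all treated AGS libraries, MRPS21 lies lower in all treated MKN1 libraries, and MRPL3 lies higher in all treated MKN1 libraries.

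The treatment effects in the lines were compared directly. For 43 genes the log2 fold change was negative in both lines and for 4 positive in both. Of all 78 genes 62 were negative in AGS and 55 in MKN1, and agreement between the lines beyond these shares was not tested. Of the 17 genes that fell in AGS 11 were negative in MKN1, as were 55 of all 78. The difference between the effects (MKN1 minus AGS) was called higher for 4 of the 78 genes and lower for 1, where 8.38% and 7.3% of all genes were called. Its median was 0.16 over MRPL genes and -0.02 over MRPS genes, against 0.03 over all genes. With subunits assigned by structure the medians were 0.14 for the large and 0.05 for the small subunit, so the sign for the small subunit depends on the assignment. This difference uses the same libraries as each line's own comparison and is no separate evidence for either.

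MRPL48 had the largest difference, 1.16 ± 0.22 on the log2 scale (adjusted p = 0.00432). In MKN1 it was at 17.5, 18.8 and 14.2 CPM untreated and 21.9, 19.8 and 25.9 CPM treated, so that the treated libraries were above the untreated ones in MKN1 and below them in AGS. The MKN1 effect alone did not pass (0.42 ± 0.15, adjusted p = 0.118). MRPL51 was at 60.3, 62.0 and 54.2 CPM in untreated MKN1 and 64.4, 47.9 and 65.8 CPM in treated MKN1, which overlapped, and the difference between lines was 0.71 ± 0.18 (adjusted p = 0.0174).

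MRPL20, a large-subunit protein with a bacterial homologue (chromosome 1, 1401908 to 1407313), was at 74.1, 68.1 and 82.7 CPM in untreated and 52.3, 43.0 and 52.1 CPM in treated AGS. In MKN1 it was at 75.7, 85.5 and 74.3 CPM untreated and 85.4, 71.7 and 105.4 CPM treated. Thus only the AGS groups were separate, and the difference was 0.77 ± 0.20 (adjusted p = 0.0224). MRPS15, a small-subunit protein with a bacterial homologue (chromosome 1, 36455718 to 36464437), was at 82.7, 73.9 and 81.8 CPM in untreated and 54.0, 53.0 and 57.1 CPM in treated AGS. Its MKN1 values were 57.8, 57.0 and 62.3 CPM untreated and 65.4, 53.3 and 78.4 CPM treated. The MKN1 groups overlapped and the difference for MRPS15 was 0.69 ± 0.18 (adjusted p = 0.0207). MRPS21 went the other way, with a difference of -0.53 ± 0.15 (adjusted p = 0.0273).

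**Figure D5:**
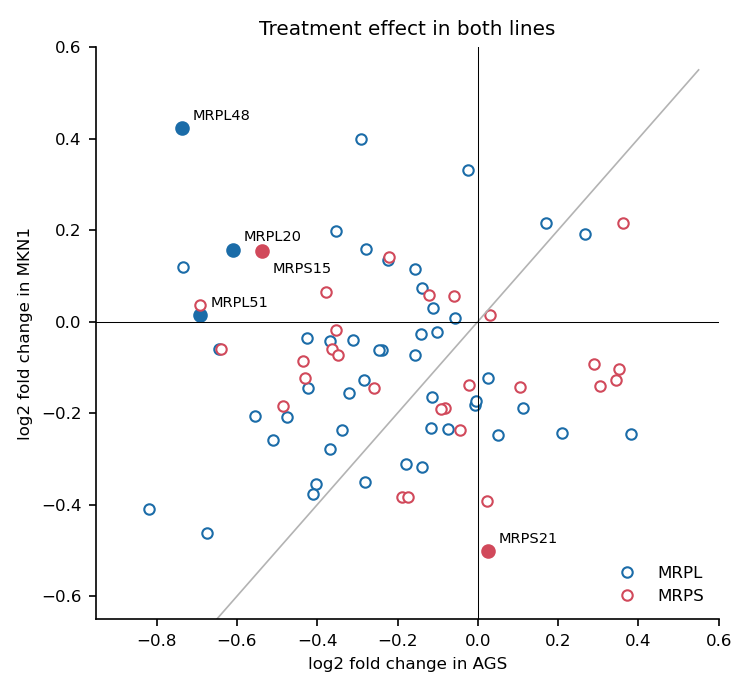
log2 fold change in AGS (x axis) against MKN1 (y axis) for the 49 MRPL genes (blue) and 29 MRPS genes (red); the grey line marks equal effects. Filled, labelled points have an adjusted p under 0.05 for the difference between lines: MRPL48, MRPL20, MRPL51 and MRPS15 above the line and MRPS21 below it.

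The subunits of the same ribosome that carry other symbols were read in the same fit. Of 5 such genes, GADD45GIP1 and AURKAIP1 fell in AGS (40%, against 11.6% of all genes) and 0 rose (against 9.21%). GADD45GIP1, a large-subunit protein, was at 38.0, 36.6 and 43.8 CPM untreated and 24.8, 21.8 and 25.7 CPM treated, with a log2 fold change of -0.71 ± 0.12 (adjusted p = 0.00217). AURKAIP1, a small-subunit protein, was at 47.7, 43.2 and 58.0 CPM untreated and 30.8, 30.8 and 29.5 CPM treated, with -0.71 ± 0.15 (adjusted p = 0.00733). Neither gene's groups overlapped. DAP3, CHCHD1 and PTCD3, all of the small subunit, had log2 fold changes of 0.11, -0.37 and 0.33 in AGS that did not pass. In MKN1 none of the 5 was called by edgeR, DESeq2 or limma voom, with 0 at an unadjusted p under 0.05.

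The ribosomal RNAs that these proteins assemble with are encoded in mitochondrial DNA and moved differently in the lines. MT-RNR2, the large-subunit RNA, was at 11400, 10240 and 11280 CPM in untreated AGS and 14360, 14840 and 12740 CPM in treated AGS. It was higher in every treated AGS library, with a log2 fold change of 0.35 ± 0.10 (adjusted p = 0.0257). In MKN1 it was at 10090, 10540 and 9919 CPM untreated and 6405, 7120 and 7050 CPM treated. There every treated library was lower, with -0.57 ± 0.10 (adjusted p = 0.00763).

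MT-RNR1, the small-subunit RNA, was at 712.2, 662.3 and 643.3 CPM in untreated AGS and 726.7, 753.4 and 715.5 CPM in treated AGS, with a log2 fold change of 0.12 ± 0.11 (adjusted p = 0.444). In MKN1 it was at 1108, 1191 and 908.5 CPM untreated and 694.1, 695.6 and 693.1 CPM treated. All treated MKN1 libraries were lower, with -0.62 ± 0.11 (adjusted p = 0.00747). The libraries were made from messenger RNA per the labels' protocols, so the levels of these RNAs depend on how much passed that step, and its part was not tested.

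Other genes of mitochondrial translation were read in the same way. Of 26 assembly factors, 3 fell in AGS, MPV17L2 (-0.83, adjusted p = 0.00217), RCC1L (-0.58, adjusted p = 0.0171) and TRUB2 (-0.55, adjusted p = 0.0271), and TFB1M, which methylates the small-subunit RNA, rose (0.67, adjusted p = 0.0106). These shares, 11.5% lower and 3.85% higher, were not above those of all genes (11.6% and 9.21%). In MKN1 the assembly factor MTG1, a GTPase of the large subunit, fell (-0.72, adjusted p = 0.025), which is 3.85% of the 26, against 3.9% of all genes. None of 16 translation factors was called by edgeR or limma voom in either line. By edgeR 6 in AGS and 5 in MKN1 had an unadjusted p under 0.05, and DESeq2 called 4 in AGS and 2 in MKN1. The 13 proteins that the mitochondrial ribosome makes gave no edgeR call in either line, with 3 at an unadjusted p under 0.05 in each. DESeq2 and limma voom each called 1 of them, higher, in AGS, and neither tool called any in MKN1. All 13 had a negative log2 fold change in MKN1, with a median of -0.28.

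Of 5 mitochondrial transcription factors none was called in either line by the 3 tools, and at an unadjusted p under 0.05 edgeR had 1 in AGS and 0 in MKN1. Of 9 regulators of nuclear genes for mitochondria, NRF1 fell in AGS (-0.58, adjusted p = 0.0109) and PPARGC1B rose (0.84, adjusted p = 0.0431). Each is 11.1% of the 9, against 11.6% of all genes lower and 9.21% higher. Limma voom called none of the 9 higher in AGS, with 2 at an unadjusted p under 0.05. In MKN1 edgeR called none of these 9, with 4 at an unadjusted p under 0.05, and DESeq2 called 3 and limma voom 1. Of 14 import and protease genes, 4 fell (28.6%, against 11.6% of all genes) and 1 rose (7.14%, against 9.21%) in AGS. Among them were TOMM40, the channel of the outer membrane (-1.01, adjusted p = 0.000722), and TOMM20, an import receptor (0.49, adjusted p = 0.00733). LONP1, a matrix protease, fell in MKN1 (-0.51, adjusted p = 0.0188), which is 7.14% of that list, against 3.9% of all genes.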

How the data were processed

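RNA of 12 cultures was sequenced after messenger RNA library preparation with a kit that does not mark strand, per the labels' protocols. The authors deposited raw counts per gene. HISAT2 2.0.4 and GRCh38 are named in the submitters' processing notes, and no source used here names the counting tool, its annotation or how it treated strand and multiply mapped reads. The members and lists were chosen with earlier results of these data known. Symbols, positions and exon overlaps came from GENCODE 29, and promoters from RefSeq.

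Counts were tested in R 4.3.3 with edgeR 4.0.16 (TMM scaling, filterByExpr, quasi-likelihood test, 1 fit of all 12 libraries with a mean per group, Benjamini-Hochberg adjustment over 20280 genes, threshold 0.05). The SE is the log2 fold change over the root of the F statistic. The fit was tested on simulated data for treated against untreated AGS. It recovered 5 of 100 changes of 0.5 on the log2 scale and 74 of 100 changes of 1. It called 5 genes that had no change. Fewer genes were changed there than were called in the data, so these shares need not hold in the data. A gene without a call may still have changed. Values in every library were given for the largest called changes of each comparison, the extremes of level per kilobase and the MRPS18 paralogues. Alternatives were other scalings, DESeq2 1.42.0, limma voom (limma 3.58.1), other filters, each line alone, a replicate block, GC and length trends removed, and each library left out.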

Additional observations from a re-analysis of the deposited data

Results flagged for a closer look

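The treatment effect differed between the lines, by the test of the difference itself, for 5 of the 78 genes (5.13% higher and 1.28% lower). It did so for 3180 of all 20280 genes tested (8.38% higher and 7.3% lower), so the share of the 78 was not above that of all genes. The difference (MKN1 minus AGS, log2) was 1.16 for MRPL48, 0.77 for MRPL20, 0.71 for MRPL51, 0.69 for MRPS15 and -0.53 for MRPS21. The same test passed for 11 genes of the other lists of mitochondrial genes. Both ribosomal RNAs were among them, with -0.92 for MT-RNR2 and -0.74 for MT-RNR1. TOMM40 had 1.33, the assembly factor MPV17L2 1.06, TIMM44 0.73, the large-subunit gene GADD45GIP1 0.64 and MTRF1L 0.49. MTG1 had -0.82, LONP1 -0.58, MT-ND4L -0.55 and OXA1L -0.50. TIMM44, MTRF1L, MT-ND4L and OXA1L are named because they passed this test and were chosen after their values were seen.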

How the results depend on the processing

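The subunit medians in each line and the named genes kept their sign under every alternative run. Medians near 0 over all genes did not: the AGS median was -0.02 to 0.01 and the MKN1 median -0.02 to 0.08. The calls of MRPL48 and MRPL51, in AGS and in the difference between lines, held under every alternative run, as did the 10 largest differences between untreated lines. The counts are given as lower in AGS, higher in AGS, lower in MKN1, higher in MKN1, and effect lower or higher in MKN1 than in AGS (17, 2, 1, 1, 1 and 4 genes). With library totals the effect was higher for 9 genes, where 2034 of all 20280 genes were called. The MKN1 medians were then -0.044 for MRPL and -0.024 for MRPS, while the median of all genes was 0.08. With DESeq2 size factors the effect was lower for 2, where 1545 of 20280 genes were called. The DESeq2 test gave 4 higher in AGS (5.13%, against 11.6% of all genes) and 6 lower in MKN1 (7.69%, against 6.8%). In that test effects were lower for 4 and higher for 7, where 2013 and 2039 of 20280 genes were called. Limma voom gave 2 lower in MKN1 (2.56%, against 4.6% of all genes). Without a filter 0 were higher in AGS (4.51% of all genes were) and 0 higher in MKN1 (0.889% were). In that fit 0 had a lower effect, where 1196 of 32269 genes did. A filter of 5 CPM in 3 libraries gave 4 higher in AGS (5.13%, against 12.6%) and 2 lower in MKN1 (2.56%, against 5.6%). With GC and length trends removed 1 was higher in AGS (1.28%, against 10.1% of all genes) and 4 were lower in MKN1 (5.13%, against 5.75%). Effects were then lower for 4 and higher for 9, where 2088 and 1785 of 20207 genes were called. Each line fitted alone gave 36 lower and 7 higher in AGS, where 4328 and 4040 of 17345 genes were called in those directions. The MKN1 fit gave 0 lower and 0 higher, where 29 and 5 of 18484 genes were called. In that MKN1 fit edgeR had 6 ribosomal protein genes lower and 2 higher at an unadjusted p under 0.05.

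The main fit did not pair libraries by replicate number. Deviations of same-numbered treated and untreated libraries correlated at 0.01, 0.02 and -0.04 in AGS and 0.08, -0.04 and 0.18 in MKN1. For libraries with different numbers the values ran from -0.065 to 0.054 in AGS and from -0.18 to 0.12 in MKN1. With 3 libraries in each group these values cannot decide whether same-numbered cultures were handled together. A replicate block gave 16 lower in AGS (20.5%, against 10.7% of all genes) and 0 higher in MKN1 (against 2.3%). The effect was higher for 7, where 1639 of 20280 genes were called. With GC and length trends removed as well, 0 were higher in AGS (against 8.85%). In MKN1 2 were lower (2.56%, against 4.83%) and 0 higher (against 2.55%). In that fit the effect was lower for 2, where 1904 of 20207 genes were called.

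Leaving out single libraries gave 4 to 26 lower in AGS, where 5.72% to 14.6% of all genes were lower. It gave 0 to 5 higher in AGS, where 4.12% to 11.9% of all genes were higher. In MKN1 0 to 9 were lower (1.11% to 7.6% of all genes were) and 0 to 1 higher (0.497% to 7.5% were). Effects were lower for 0 to 5, where 1005 to 2097 of all genes were called. They were higher for 2 to 6, where 1093 to 2546 of 20756 to 20936 genes were called. No ribosomal protein gene was higher in AGS without any 1 AGS library, where 4.12% to 5.3% of all genes were. The MRPS median in MKN1 ran from -0.035 without untreated MKN1 replicate 2 to -0.18 without treated MKN1 replicate 3. Of the genes that fell in AGS, MRPL48, MRPL51, MRPL28 and MRPS15 kept the call in all 12 of these fits, MRPL27, MRPS12, MRPL41, MRPL14 and MRPL20 lost it in 1 to 3, and the other 8 in 4 to 7. For the difference between lines MRPL20 lost it in 2, MRPS15 in 5 and MRPS21 in 5. The cause was not tested.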
